A study of Mus musculus with 1187 samples.

Results

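The data described here are the reads of 10 immediate early genes in single endothelial cells of the adult mouse brain. The genes were taken from a fixed list of names, and all 10 of 10 were found among the 46517 genes of the count table: Fos, Fosb, Jun, Junb, Jund, Egr1, Atf3, Ier2, Nr4a1 and Dusp1. The cells came from C57BL/6 mice that carried the Pdgfb ret allele together with a Cldn5-GFP and a Cspg4-DsRed reporter. They were sorted as GFP-positive and DsRed-negative, which takes endothelium and leaves out cells with the pericyte reporter, and each cell became its own full-length Smart-seq2 library without molecular identifiers. The labels name 590 Pdgfb ret/+ cells and 597 Pdgfb ret/ret cells. The ret allele lacks the retention motif of PDGF-B, and homozygous mice are short of brain pericytes; the heterozygous mice, which carry 1 such allele, are the controls.

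The count table names each cell only by its plate and well. None of these names (0 of 1187) matched a sample title, so no cell could be given a genotype and no comparison of genotypes was made. All 1187 cells were treated as 1 pooled sample. Plates 521, 522, 523 and 524 (300, 290, 285 and 312 cells) are given value by value, because a plate may coincide with a genotype or an animal, which cannot be told apart here. With 1 sample there is no test and no p-value; the spread over the 4 plates is the guide to error. Cells had 100779 to 584112 reads (median 360947) and a median of 4462 genes with a read. The sorted cells matched their label: all 8 endothelial markers stood at 395 CPM or more (CPM is the reads of a gene scaled to the total reads of the cells concerned), led by Cldn5 at 4038 CPM, while the median marker of the pericyte, smooth muscle, fibroblast, neuron and oligodendrocyte lists stood at 3.97 CPM or less. Astrocyte markers had a median of 12.9 CPM, with Gja1 at 185 CPM, and microglia and macrophage markers had a median of 2.97 CPM. At least 3 markers of 1 other cell type at 100 CPM or more were found in 23 cells.

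Immediate early genes are transcribed within minutes of a stimulus, without new protein synthesis, when kinases such as ERK and p38 activate factors already bound at their promoters. Fos and Jun proteins pair to form AP-1, a transcription factor that turns on a later wave of genes, and Dusp1 encodes a phosphatase that switches the kinases off again. In endothelium these genes answer growth factors, flow and cytokines, and they are also known to rise during enzymatic dissociation and sorting of tissue.

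The stretches of DNA just before RefSeq start sites are shown first. Known inputs of these genes include cAMP response elements, bound by CREB and ATF proteins. RefSeq windows of 250 bases ending at the start were used for 8 of the 10 members (GRCm38.p6). Egr1 and Ier2 were left out of this search, so their promoters are not described. The window of Jund ends at 70697738, upstream of the GENCODE M21 start of the gene at 70698949, so it lies before another start. The windows of Atf3, Nr4a1 and Dusp1 lie inside the GENCODE bounds of those genes, so they too lie before another start. Nr4a1 begins at 101254269 there, and on the minus strand Atf3 begins at 191218039 and Dusp1 at 26562128. The core TGACG was searched on both strands and was present in 6 of 8 windows, those of Fos, Fosb, Junb, Atf3, Nr4a1 and Dusp1. It was present in 17.8% of all 32851 windows of this length. The full element TGACGTCA, which holds the core on both strands, was present before Dusp1 and in 1.55% of all windows. The CArG box of serum response factor was in 0 of 8 windows (1.47% of all) and the AP-1 motif TGAGTCA in 0 of 8 (4.46% of all). Only exact matches within these 250 bases were counted, and sites further upstream were not searched. A match is a description of letters only, and its part in the members' levels was not tested. The windows of Fos, Nr4a1 and Dusp1, which hold the most matches, and that of Jun, which holds none, are printed 5′ to 3′ on the gene's strand. Capitals mark TGACG, or CGTCA where the core lies on the other strand.
Fos, chr12:85473640-85473889, plus strand: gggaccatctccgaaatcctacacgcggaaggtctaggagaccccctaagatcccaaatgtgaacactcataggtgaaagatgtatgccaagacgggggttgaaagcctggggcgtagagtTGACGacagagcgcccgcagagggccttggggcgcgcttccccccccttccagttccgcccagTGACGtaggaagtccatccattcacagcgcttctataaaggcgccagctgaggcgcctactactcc
Nr4a1, chr15:101266596-101266845, plus strand: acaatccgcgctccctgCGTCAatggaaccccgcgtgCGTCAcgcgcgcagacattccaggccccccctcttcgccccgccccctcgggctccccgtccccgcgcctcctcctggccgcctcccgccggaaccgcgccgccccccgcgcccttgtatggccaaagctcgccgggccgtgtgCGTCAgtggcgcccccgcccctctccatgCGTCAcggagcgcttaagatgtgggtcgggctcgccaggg
Dusp1, chr17:26508473-26508722, minus strand: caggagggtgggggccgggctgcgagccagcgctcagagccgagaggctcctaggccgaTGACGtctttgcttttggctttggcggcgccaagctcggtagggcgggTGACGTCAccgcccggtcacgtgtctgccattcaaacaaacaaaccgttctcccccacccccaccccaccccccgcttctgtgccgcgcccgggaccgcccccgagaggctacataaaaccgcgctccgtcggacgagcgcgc
Jun, chr4:95052223-95052472, minus strand: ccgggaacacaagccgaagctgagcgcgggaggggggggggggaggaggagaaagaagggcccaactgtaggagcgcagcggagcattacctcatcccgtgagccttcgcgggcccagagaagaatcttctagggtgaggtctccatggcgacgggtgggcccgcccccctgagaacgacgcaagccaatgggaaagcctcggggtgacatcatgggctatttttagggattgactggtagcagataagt

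Within these windows the core began at positions -129 and -66 from the RefSeq start of Fos, and at -233, -213, -69 and -40 from that of Nr4a1. In the window of Dusp1 the full element began at -143 and a further core at -191. Positions count the base just before the RefSeq start as -1.

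The members were abundant in the sorted cells, and they were unevenly spread over them. Summed over all cells, the MAP kinase phosphatase Dusp1 stood at 941 CPM, the AP-1 subunits Fos and Jun at 815 and 728 CPM, and the orphan nuclear receptor Nr4a1 at 270.5 CPM. Junb, another AP-1 subunit, stood at 254 CPM, the stress-induced factor Atf3 at 246 CPM and the nuclear protein Ier2 at 241 CPM. The zinc-finger factor Egr1 stood at 158 CPM, and the AP-1 subunits Fosb and Jund at 66.7 and 60.5 CPM. Counting error is small at these depths (exact Poisson 95% interval of Fos 812 to 818 CPM), and reads of such libraries are not independent molecules, so intervals cover counting error only.

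Because the libraries are full-length, levels of different genes were compared per kilobase of exon. Jun, Junb, Jund and Dusp1 share exonic bases with an opposite-strand gene, and the part of this in their levels was not tested. Per kilobase, Fos led with 347 CPM per kb (246 to 423 over plates), followed by Dusp1 at 284 (234 to 333) and Jun at 228 (160 to 276). Ier2 stood at 158 CPM per kb (103 to 214), Atf3 at 114 (70.8 to 148), Junb at 110 (85.7 to 138) and Nr4a1 at 77.1 (57.8 to 107). Jund at 36.3 (33.5 to 38.7), Egr1 at 35.2 (27.3 to 46.2) and Fosb at 10.7 (3.43 to 16.1) were lowest. The plate ranges of neighbours overlap from Fos down to Nr4a1 and between Jund and Egr1. Nr4a1 lay above Jund, and Egr1 above Fosb, on every plate.

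Most cells had either a high level of Fos or close to none. Fos stood at 100 CPM or more, called on below, in 49.7% of cells, with a median of 1329 CPM in those cells. Only 4.04% of cells lay between 10 and 100 CPM, 18.7% had a read but less than 10 CPM, and 27.5% had no read. Egr1 (18.4% of cells on, 5.81% between 10 and 100 CPM, 66.9% with no read) and Atf3 (29.8%, 5.73% and 52.1%) had the same shape at lower frequency. Jund, often called the constitutive Jun gene, differed: 39.9% of cells lay between 10 and 100 CPM, 21.7% were on and no cell reached 1000 CPM. Dusp1 and Jun were on in most cells, 74.5% and 71.9%.

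A minority of cells therefore held most reads of the rarer members. The 10% of cells with most Egr1 reads held 81.9% of all its reads, and the corresponding share was 78.8% for Fosb, 69.0% for Atf3 and 62.2% for Nr4a1. It was 45.2% for Fos, 42.9% for Jund, 34.2% for Jun and 33.3% for Dusp1. With every cell thinned to 100000 reads, a read of Fos was found in 60.2% of cells (57.4% to 63.0%, exact binomial 95% interval) and of Dusp1 in 83.1% (80.8% to 85.2%). Egr1 was found in 26.5% of cells and Fosb in 26.7%. Without thinning the shares were 72.5%, 88.3%, 33.1% and 29.9%.

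**Figure D1:**
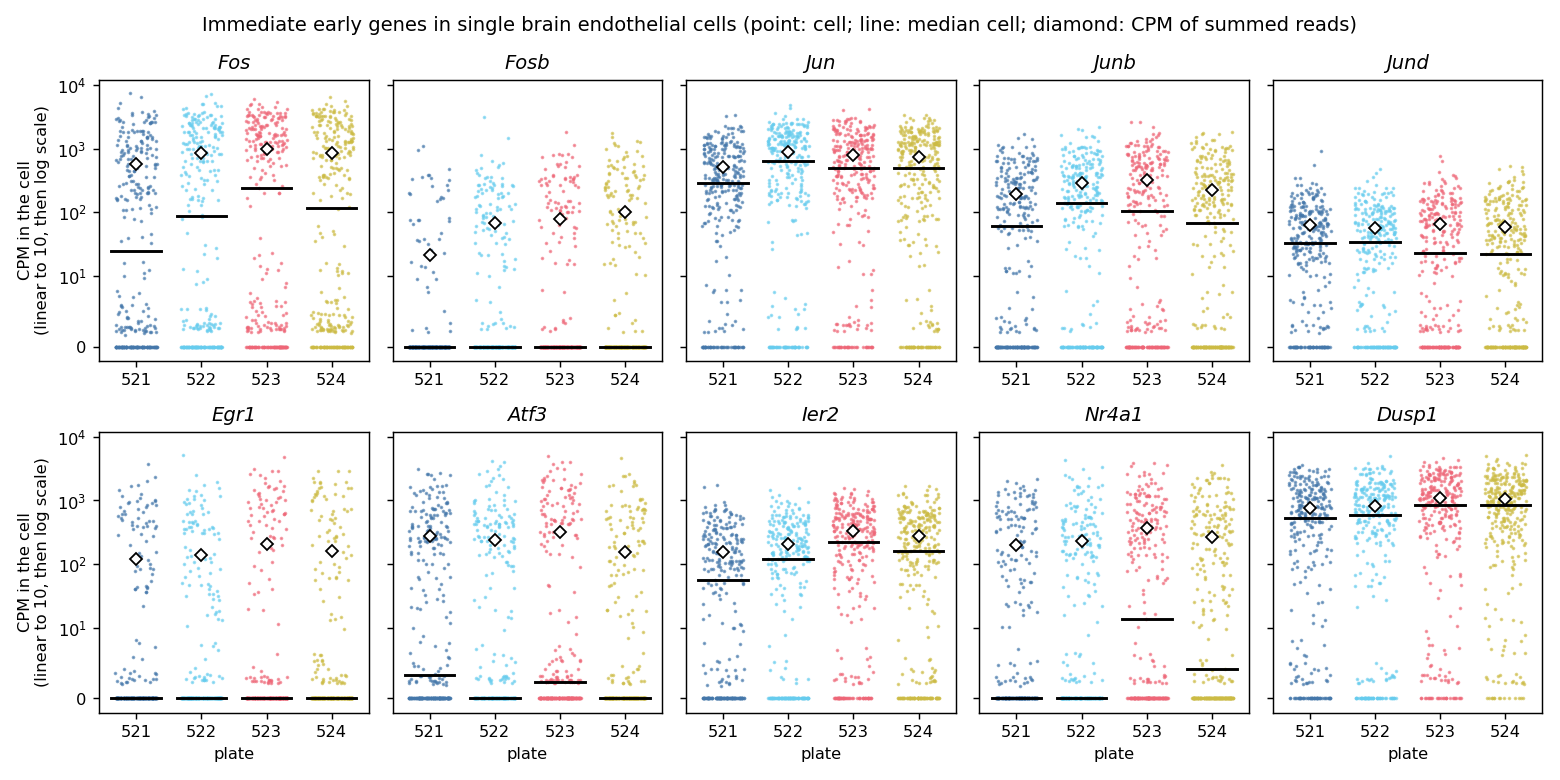
CPM of each member in each of the 1187 cells, by plate, on an axis that is linear up to 10 CPM and logarithmic above. Points are cells, black lines are the median cell and white diamonds the CPM of summed reads. For Fos the points form a band above 100 CPM (49.7% of cells) and a band below 10 CPM with few between, while Jund fills the range between 10 and 100 CPM.

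Plate 521 was lowest for most members. Fos stood at 579, 842, 995 and 855 CPM on plates 521, 522, 523 and 524, and Jun at 509, 879, 787 and 752 CPM. Ier2 stood at 157, 204, 325 and 278 CPM, and Nr4a1 at 203, 235, 376 and 271 CPM. Plate 521 was lowest and plate 523 highest for Fos, Junb, Egr1, Ier2, Nr4a1 and Dusp1. Fosb had the widest spread, with 21.4, 67.9, 77.9 and 100.2 CPM. A Fosb read at 100000 reads per cell was found in 13.7% of cells on plate 521 (10.0% to 18.1%) and in 30.7%, 29.5% and 33.0% on the other plates. Atf3 followed another order, with 273, 243, 319 and 153 CPM, and was on in 37.0% of cells on plate 521 and 20.5% on plate 524. Jund hardly moved, with 62.5, 55.9, 64.5 and 59.0 CPM.

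The highest plate was at least 1.5-fold over the lowest for 8 of 10 members, all but Jund (1.15-fold) and Dusp1 (1.42-fold). Of all genes at 5 CPM or more on some plate, 54.0% met the same rule. The median fold was 1.72 for the members and 1.55 for all genes tested. Plate-to-plate differences of this size are thus common in these libraries, and nothing particular to the members is read from them. Plate 521 also had the most genes with a read per cell (median 5118.5, against 4638, 4048 and 4344.5 on plates 522 to 524); the part of this in the members' levels was not tested.

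The members tended to be on in the same cells. In the median cell 4 of 10 members were on, 521 cells had 5 or more on (43.9%, 41.0% to 46.8%), 89 cells had none and 32 had all 10. The share of cells with 5 or more on was 39.0%, 47.6%, 47.7% and 41.7% on plates 521 to 524. For all 45 of 45 pairs, a member was on more often in cells with the other on than in cells with it off, and this held in 180 of 180 pair and plate combinations. Pairs of other genes were not counted by this rule, so no background share stands beside these counts.

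Within the AP-1 family, Jun was on in 90.5% of the 590 cells with Fos on (87.9% to 92.8%) and in 53.4% of the 597 cells with Fos off (49.3% to 57.5%). Fosb was on in 31.0% of cells with Fos on and in 1.68% of cells with Fos off. Of 193 cells with Fosb on, 94.8% had Fos on (90.7% to 97.5%). This was not particular to Fos, since Jun was on in 97.4% of them, Dusp1 in 93.8% and Junb in 90.2%. On plate 521, 12.8% of cells with Fos on had Fosb on, and on plates 522 to 524 this was 31.25%, 38.5% and 40.1%.

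Members other than the Fos and Jun genes went along with Fos as well. Nr4a1 was on in 59.0% of cells with Fos on and in 12.6% of those with Fos off, and Egr1 in 32.2% and 4.86%. Atf3 was on in 48.0% and 11.9%, and Ier2 in 71.7% and 37.9%. Dusp1 and Jun were the members most often on by themselves: 59 of 884 cells with Dusp1 on (6.67%) and 33 of 853 cells with Jun on (3.87%) had no other member on. This was so in 5 of 590 cells for Fos and in 0 of 193 for Fosb, where 3 counts, the limit used for a count of 0, would be 1.55%.

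As a description over cells within a plate, averaged over the 4 plates, Spearman correlations of all 45 pairs were positive. They ranged from 0.24 for Jund with Egr1 to 0.61 for Fos with Nr4a1, with a mean of 0.42 (0.39, 0.43, 0.46 and 0.41 on plates 521 to 524). Fos with Junb (0.60), Jun with Junb (0.56), Jun with Dusp1 (0.56) and Fos with Jun (0.55) followed the leading pair. Egr1 and Dusp1 were loosely tied (0.27). All cells of a plate share its preparation, and each pair shares the depth of its cell. With ranks of depth and of genes per cell taken out, the mean was 0.41.

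Cells with many members on were of similar depth to those with few. The 229 cells with 0 to 1 member on had a median of 358858 reads and 3480 genes at 100000 reads, and the 176 cells with 8 to 10 on had 367860 reads and 3779.5 genes. Mitochondrial transcripts took a median of 1.48% and 1.35% of their reads. The 10 members together took 0.0350% of the reads of the first set and 1.08% of the reads of the latter, which follows from how the sets were made. The mean log2 level of the members had a Spearman correlation of 0.01 with reads, 0.22 with genes with a read and -0.18 with the mitochondrial share, each a mean of within-plate values; the part of these measures was not tested.

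**Figure D2:**
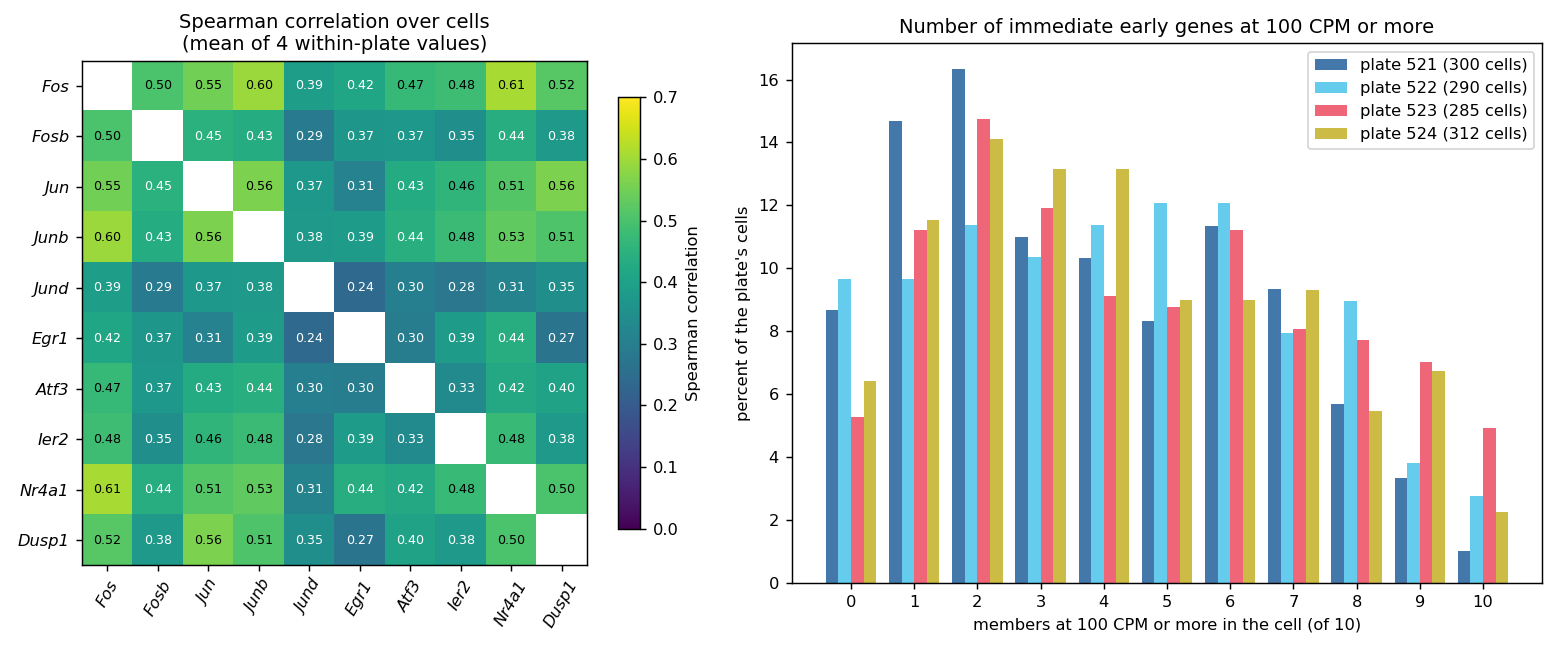
Left, Spearman correlation over cells for each pair of members, as the mean of 4 within-plate values (0.24 to 0.61). Right, percent of each plate's cells by the number of members at 100 CPM or more; the distribution is broad on every plate, with 39.0% to 47.7% of cells at 5 or more.

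Other genes were ranked by the same measure, the mean within-plate Spearman correlation with the mean log2(CPM + 10) of the members. Of the 6758 other genes with a read in at least 20% of cells, 95% lay below 0.11. Each member was set against the other 9: Fos reached 0.72, Junb and Jun 0.69 each, Nr4a1 0.68, Dusp1 0.63, Ier2 0.57, Fosb 0.55, Atf3 0.53, Egr1 0.46 and Jund 0.45. The most similar non-member was Junos (0.71), an antisense transcript that shares exonic bases with Jun on the opposite strand. No source used here states whether counting used strand. Reads of Jun and Junos therefore cannot be told apart. Exonic bases are likewise shared with an opposite-strand gene by Junb (Prdx2), Jund (Gm11175) and Dusp1 (Ergic1).

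Next came Zfp36 (0.67), whose protein speeds the decay of inflammatory mRNAs, and Ppp1r15a (0.54), a phosphatase subunit of the integrated stress response. The inducible HSP70 chaperones Hspa1a and Hspa1b (both 0.53) followed, with Gm20481 (0.53), a gene model that overlaps Hspa1a on the opposite strand. Hspa1a and Hspa1b are near-identical copies, and reads may have been split between them. Btg2 (0.53), an anti-proliferative early gene, Apold1 (0.52), an early gene of endothelium, the transcription factor Klf4 (0.50) and the small heat shock protein gene Hspb1 (0.49) completed the 10. The heat shock genes were closer to the members on plates 522 to 524 (Hspa1b 0.55, 0.64 and 0.64) than on plate 521 (0.31). At the other end, correlations were weak: Slc7a5, an amino acid transporter of the barrier, and Mir6240 and Sparc were at -0.26, Bsg at -0.26 and Lars2 at -0.24. Each of these 5 was negative on all 4 plates and had a read at 100000 reads in at least 91.2% of cells.

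Among lists of related genes, other early-response genes resembled the members most. The 28 detected of 43 had a median correlation of 0.32, led by Zfp36, Btg2 and Klf4. The 11 detected of 12 heat shock genes had 0.30, the 18 of 23 upstream factors and kinases 0.07 and the 4 of 15 MAP kinase phosphatases and feedback genes 0.06. The median of all other genes was 0.03.

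**Figure D3:**
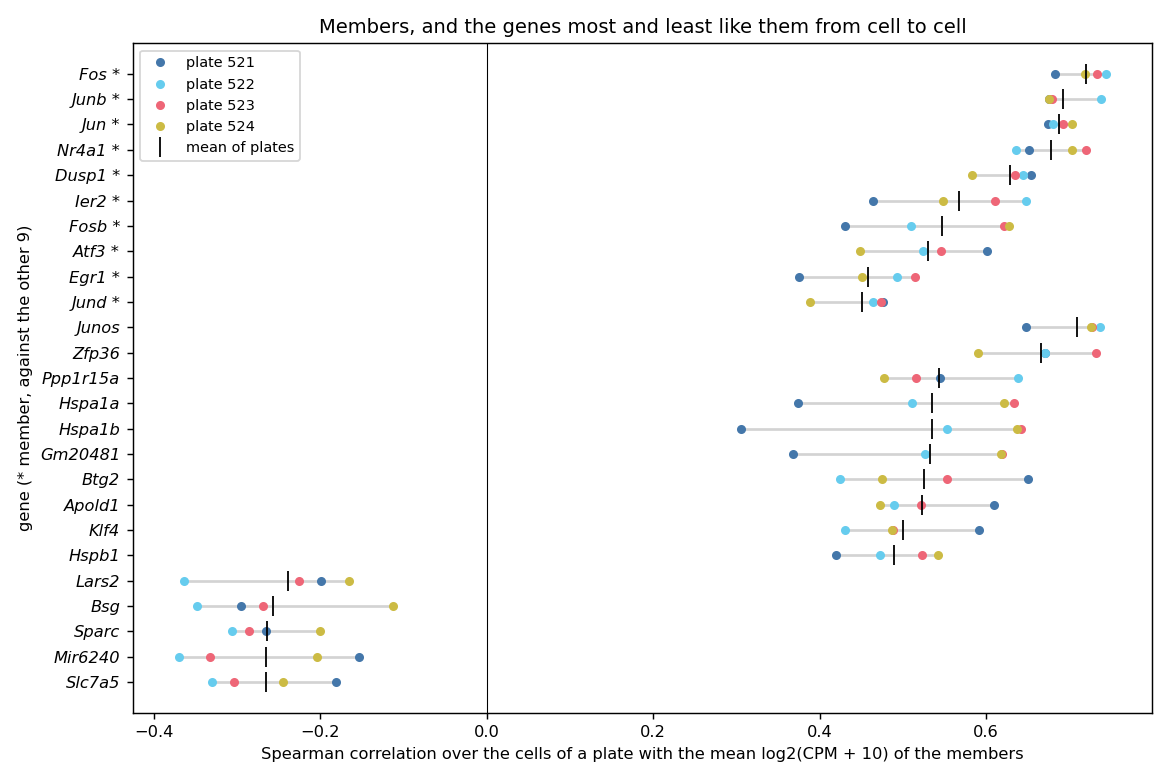
Spearman correlation over the cells of a plate with the mean log2(CPM + 10) of the members, for the 10 members (each against the other 9) and the 10 highest and 5 lowest other genes. Coloured points are plates and black ticks the mean of plates; members lie between 0.45 and 0.72, and Junos and Zfp36 lie among the leading members.

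Arterial and venous cells were then compared on each plate. Cells with Bmx or Gkn3, genes of arterial endothelium, at 50 CPM or more and neither venous gene at that level were called arterial. Cells with Nr2f2, the transcription factor of venous identity, or the interleukin-1 receptor Il1r1 at 50 CPM or more and neither arterial gene were called venous. This gave 79, 77, 45 and 52 arterial and 49, 44, 32 and 41 venous cells on plates 521 to 524. A further 723 cells had neither and 45 had both. Over all plates, 13 of 13 arterial markers were at least 1.5-fold higher in arterial cells and 11 of 12 venous markers in venous cells; the class genes themselves are among these. By plate, 13 of 13 arterial markers passed on each, while 10, 11, 8 and 7 of 12 venous markers did on plates 521 to 524, and 1 venous marker was higher in arterial cells on plate 524. Capillary markers summed to 3420 CPM in arterial and 6274 CPM in venous cells, with 5 of 8 at least 1.5-fold higher in the latter.

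The direction of the difference changed with the plate. On plate 521, 6 of 10 members were at least 1.5-fold higher in arterial cells and 0 higher in venous cells, with a median log2 ratio of 0.82. On plate 524, 7 of 10 were at least 1.5-fold higher in venous cells and 0 in arterial cells, with a median of -0.75. Plates 522 and 523 lay between, with medians of 0.12 (3 arterial, 1 venous) and -0.46 (1 arterial, 4 venous). The median over all genes tested was -0.01, 0.02, 0.03 and 0.01 on plates 521 to 524. Summed over plates the members largely cancelled: 0 were higher in arterial and 1, Fosb, in venous cells, with a median of -0.23. That median was 0.05 without plate 523.

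These counts stand against a high background, and each class holds few cells. Of all genes at 5 CPM or more in either class, 23.2% were at least 1.5-fold higher in arterial cells on plate 521 and 21.0% in venous cells. On plate 522 these shares were 24.7% and 20.5%, on plate 523 they were 30.5% and 26.4%, and on plate 524 they were 27.3% and 25.3%. Over the pooled plates they were 14.3% and 12.3%. The 6 of 10 on plate 521 and the 7 of 10 on plate 524 lie above these shares, as do the 3 of 10 arterial on plate 522 and the 4 of 10 venous on plate 523 by a smaller margin. The 1 of 10 venous on plate 522 and the 1 of 10 arterial on plate 523 lie below them. Because the members rise and fall in the same cells, the 10 genes do not count as 10 separate observations. The difference between plates was not tested.

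Among the AP-1 genes, Fos went from higher in arterial to slightly higher in venous cells. Arterial cells had 999, 1318, 1311 and 906 CPM of Fos on plates 521 to 524, and venous cells had 243, 733, 1395 and 1179.6 CPM. The log2 ratios were 2.04, 0.85, -0.09 and -0.38. The venous share moved most between plates: Fos was on in 34.7% of venous cells on plate 521 (21.7% to 49.6%) and in 54.5%, 62.5% and 63.4% on plates 522 to 524. In arterial cells it was on in 59.5%, 68.8%, 60.0% and 51.9%.

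Jun and Junb turned in the same way at smaller size. Arterial cells had 582, 944, 641 and 592 CPM of Jun, and venous cells had 460.5, 919.6, 1236 and 952 CPM, which gives log2 ratios of 0.34, 0.04, -0.95 and -0.68. For Junb the ratios were 0.28, 0.22, -0.54 and -0.74. The share of cells with Jun on differed little between the classes, at 70.9% and 69.4% on plate 521 and 73.1% and 73.2% on plate 524. The median arterial and venous cell there had 436 and 789 CPM of Jun.

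Jund had log2 ratios below 0 on every plate. They were -0.10, -0.14, -0.90 and -0.91, with 62.4, 60.3, 115 and 79.8 CPM in venous cells and 58.3, 54.5, 61.1 and 42.0 CPM in arterial cells. On plate 523 the ratio fell short of 1.5-fold, at -0.53, without 1 venous cell. On plates 521 and 522 it crossed 0 under other settings (-0.24 to 0.20 and -0.32 to 0.25). Fosb was higher in venous cells on plates 522, 523 and 524 (log2 ratios of -1.52, -1.52 and -1.21), with 174, 168 and 199.8 CPM against 60.0, 57.9 and 86.0 CPM in arterial cells. On plate 521 it stood at 33.5 CPM in arterial and 16.5 CPM in venous cells (0.98). There 2 of 49 venous cells had Fosb on, and 1 cell held 78.9% of the venous level; without that cell the ratio was 2.27.

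Atf3, a factor that pairs with Jun proteins and is induced by many stresses, had the widest range over plates. Arterial cells had 342, 380.2, 291 and 85.0 CPM, and venous cells had 216, 226, 718 and 351 CPM. The log2 ratios were 0.66, 0.75, -1.30 and -2.03. On plate 524 Atf3 was on in 11.5% of arterial cells (4.35% to 23.4%) and in 36.6% of venous cells (22.1% to 53.1%), and on plate 523 in 26.7% and 59.4%. On plate 521 the shares were nearly equal, at 41.8% and 42.9%. The calls on plates 521 and 522 ended when certain arterial cells were left out in turn (lowest 0.55 and 0.51), and on plate 522 the ratio was 1.41 without 1 venous cell.

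Among the members outside AP-1, Ier2 had 216, 265, 370.0 and 275 CPM in arterial cells and 65.9, 231, 436 and 336 CPM in venous cells. The log2 ratios were 1.70, 0.20, -0.24 and -0.29, so plate 521 alone passed 1.5-fold. Ier2 was on there in 54.4% of arterial cells (42.8% to 65.7%) and 26.5% of venous cells (14.9% to 41.1%).

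The nuclear receptor gene Nr4a1 had 289, 412, 441 and 177 CPM in arterial cells and 109.7, 264, 504 and 349 CPM in venous cells. Its log2 ratios were 1.39, 0.64, -0.19 and -0.97, and it was on in 34.2% and 20.4% of arterial and venous cells on plate 521 and in 32.7% and 46.3% on plate 524. The call on plate 522 ended when certain arterial cells were left out in turn (lowest 0.48). Its paralogue Nr4a2 did not turn.

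Egr1 was carried by few cells, and its ratios of 1.61, -0.29, 0.61 and -0.42 followed no common direction. Arterial cells had 162, 192, 401 and 127.5 CPM, and venous cells had 52.7, 236, 263 and 171 CPM. A single venous cell on plate 522 held 49.5% of the venous level there, and the call on plate 523 ended when certain cells of either class were left out in turn (lowest 0.33). Dusp1, the phosphatase, was close to equal on plate 521, at 813 and 826 CPM. It was lower in arterial cells on the other plates, with 805, 1113 and 843 CPM against 918, 1440.4 and 1422 CPM (log2 ratios of -0.19, -0.37 and -0.75), of which plate 524 alone passed 1.5-fold. Under other settings the ratio crossed 0 on plates 521 and 522 (-0.14 to 0.18 and -0.44 to 0.11).

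**Figure D4:**
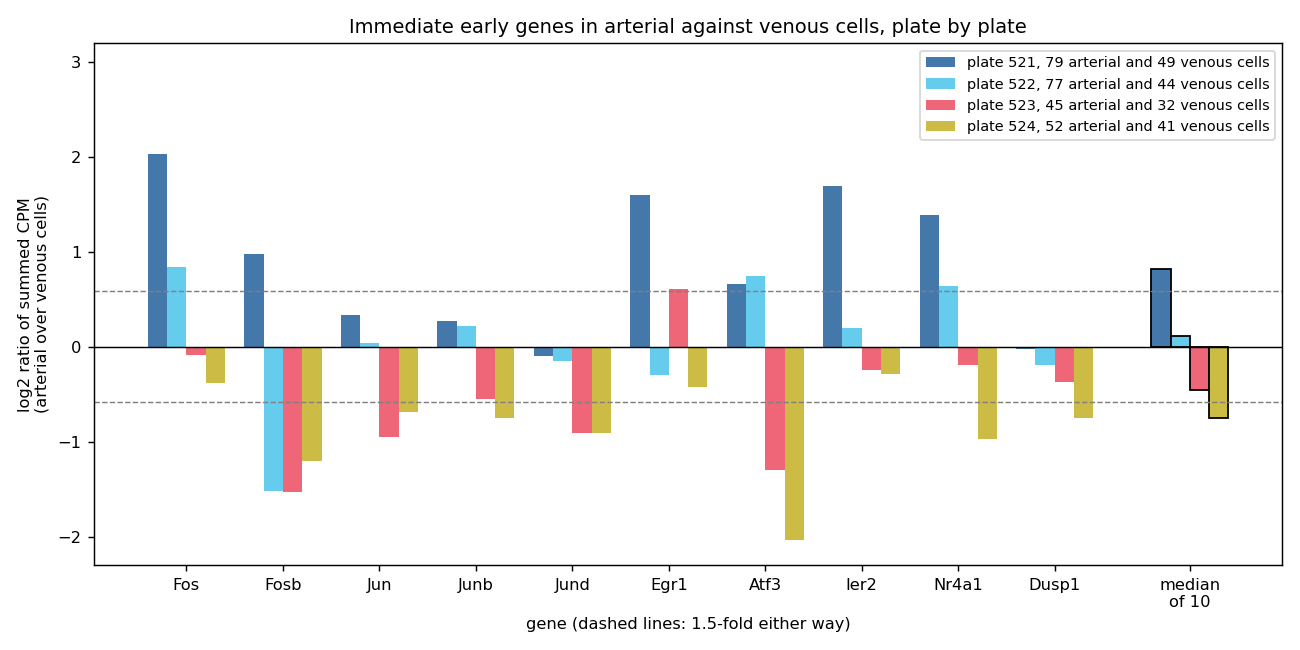
Log2 ratio of summed CPM, arterial over venous cells, for each member on each plate, with the median of the 10 members at the right; dashed lines mark 1.5-fold. The member median passes from 0.82 on plate 521 to -0.75 on plate 524, and Jund and Dusp1 lie below 0 on all 4 plates, although on plates 521 and 522 they crossed 0 under other settings.

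At least 1.5-fold differences in opposite directions on different plates were found for 3 of 10 members, Fosb, Atf3 and Nr4a1. Of all genes at 5 CPM or more in either class on each plate, 29.8% did the same, so a reversal by itself is common in these data. The range of a member's log2 ratio over the 4 plates ran from 0.73 for Dusp1 to 2.78 for Atf3, beside a median range of 1.46 over all genes tested. Ranges were 2.42 for Fos, 2.50 for Fosb, 2.36 for Nr4a1, 2.02 for Egr1 and 1.98 for Ier2. Those of Jun (1.28), Junb (1.02) and Jund (0.81), like that of Dusp1, lay below the median of all genes tested.

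Cells with neither arterial nor venous genes give a further point of reference. The 10 members together summed to 3701, 4806, 5062 and 3339 CPM in arterial cells of plates 521 to 524. In venous cells they summed to 2220, 4085, 6824 and 5383 CPM, and in cells with neither to 2541, 3024, 4068 and 3850 CPM. On plate 521 the venous cells thus lay below the cells with neither and the arterial cells above both. On plate 524 the arterial cells lay below the cells with neither and the venous cells above both, and on plates 522 and 523 both classes were above the cells with neither. At least 5 members were on in 50.6% of arterial (39.1% to 62.1%) and 22.4% of venous cells (11.8% to 36.6%) on plate 521. On plate 524 the shares were 40.4% (27.0% to 54.9%) and 58.5% (42.1% to 73.7%). In cells with neither, the share was 36.2% on plate 521 and 39.1% on plate 524. By this share, unlike the summed level, the arterial cells of plate 524 did not lie below the cells with neither.

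**Figure D5:**
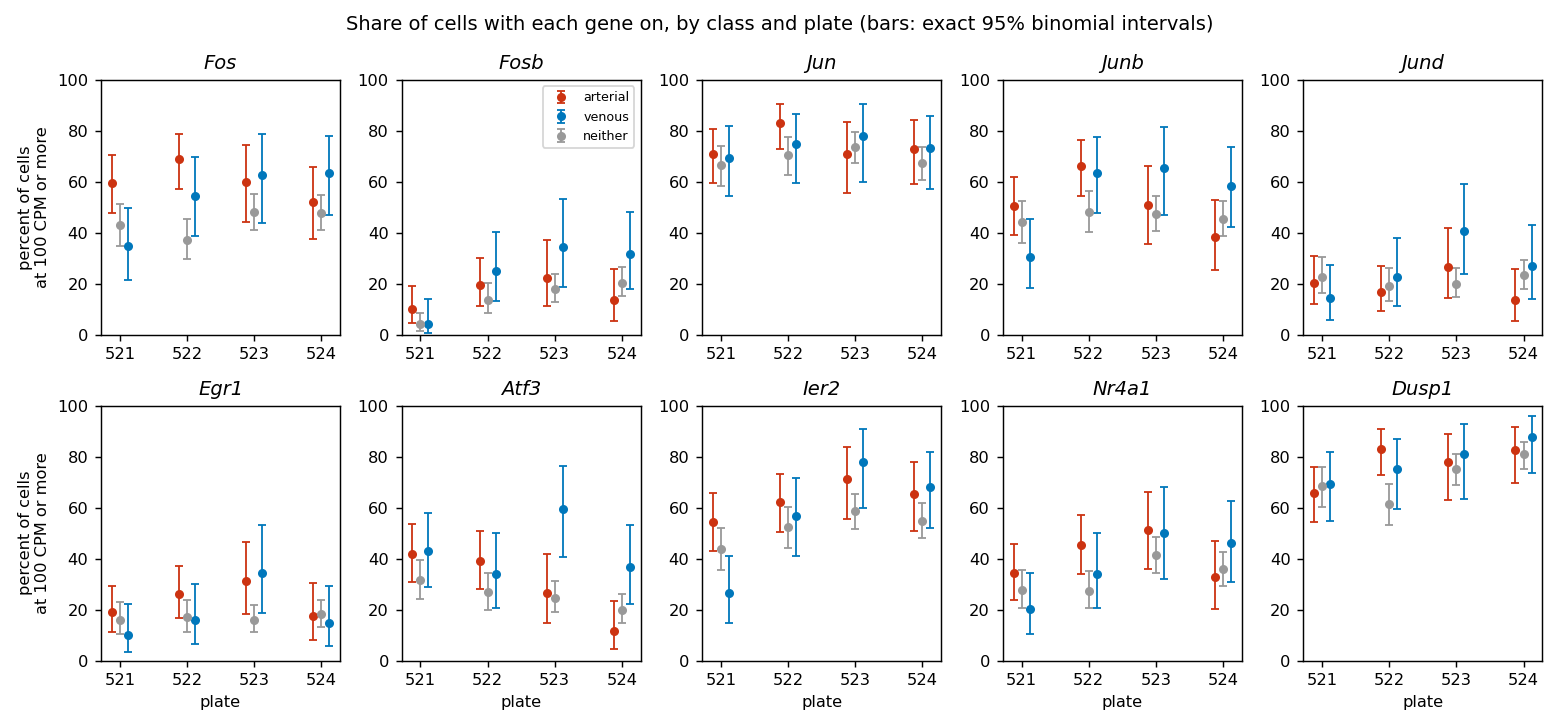
Percent of cells with each member at 100 CPM or more in arterial (red), venous (blue) and neither (grey) cells of each plate, with exact binomial 95% intervals over cells. Venous shares of Fos, Junb and Ier2 are lowest on plate 521 (34.7% for Fos), and the venous share of Atf3 on plate 523 is 59.4% against 26.7% in arterial cells.

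The members were linked within each class as well. The mean pair correlation, averaged over plates, was 0.44 in arterial cells (0.38 to 0.49 over plates), 0.46 in venous cells (0.28 to 0.62) and 0.38 in cells with neither (0.32 to 0.42). On plate 521 the median arterial and venous cell had 373736 and 373183 reads and 5203 and 5231 genes with a read. On plate 524 it had 406390 and 356407 reads and 4523 and 4599 genes; the part of the difference in reads was not tested.

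Transcripts of other cell types were measured in both classes. Astrocyte markers summed to 225, 173, 216 and 328 CPM in arterial cells of plates 521 to 524 and to 149, 154, 256 and 53.5 CPM in venous cells. Plate 524, where most members were higher in venous cells, thus had the widest gap in summed astrocyte transcripts, in the arterial direction. Marker by marker it differed: on that plate 1 of 6 was at least 1.5-fold higher in arterial and 3 in venous cells. The part of this gap in the members' values was not tested. Over plates, pericyte markers summed to 7.80 to 94.3 CPM in arterial and 8.02 to 127 CPM in venous cells, and smooth muscle markers to 2.61 to 35.3 and 0.633 to 48.5 CPM. The microglial gene Tmem119 had no read in either class on plates 522, 523 and 524, and the pericyte gene Kcnj8 none on plates 521, 522 and 523. Summed over plates, the number of markers at least 1.5-fold higher in arterial and in venous cells was 3 and 1 of 6 for astrocytes, 1 and 1 of 8 for microglia, 0 and 3 of 7 for pericytes and 2 and 0 of 6 for smooth muscle.

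Lists of related genes were counted in the same way. Of the other early-response genes at 5 CPM or more, 9 of 34 were at least 1.5-fold higher in arterial and 2 in venous cells on plate 521, and 8 and 2 of 35 on plate 522. On plate 523 the counts were 5 and 12 of 34, and on plate 524 they were 7 and 12 of 33. The shares over all genes were 23.2% and 21.0% on plate 521, 24.7% and 20.5% on plate 522, 30.5% and 26.4% on plate 523 and 27.3% and 25.3% on plate 524. Differences past 1.5-fold in opposite directions on different plates were found for 4 of 31 of these genes, beside 29.8% of all genes. The list medians were 0.17, 0.12, -0.19 and -0.32, above 0 and below 0 on the same plates as those of the members. Heat shock genes had 1 and 1 of 12, 0 and 1, 1 and 3, and 1 and 5 on plates 521 to 524, with medians of 0.01, 0.09, -0.40 and -0.50. For upstream factors and kinases the counts were 4 and 2, 4 and 2, 5 and 5, and 6 and 4 of 23, with medians of 0.06, 0.21, 0.19 and 0.05. MAP kinase phosphatases and feedback genes had 2 and 3 of 11, 4 and 3 of 11, 2 and 5 of 10, and 3 and 5 of 12, with medians of -0.27, 0.09, -0.43 and -0.28. Lists were measured in the same cells as the members and are not independent of them.

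In these lists, 2 genes were at least 1.5-fold apart in the same direction on all 4 plates. They were 1 of 31 other early-response genes and 1 of 9 MAP kinase phosphatases and feedback genes. This was so for 0 of 12 heat shock genes and 0 of 23 upstream factors and kinases. The share over all genes was not computed, so no background stands beside these counts. The nuclear receptor gene Nr4a2 was higher in arterial cells, with 86.0, 58.3, 84.2 and 107 CPM against 14.6, 38.1, 44.1 and 12.8 CPM in venous cells. Its log2 ratios were 2.48, 0.60, 0.92 and 2.98, of which that on plate 522 lay just past 1.5-fold. Spry4, a feedback inhibitor of receptor tyrosine kinase signalling, was also higher in arterial cells, at 21.3 against 0.384 CPM over all plates (log2 ratio 4.01 with a prior of 1 CPM) and with no read in venous cells of plate 524. Both thus kept 1 direction on plates where Nr4a1, Fos and Atf3 did not. Unlike the members, they were not checked with single cells left out.

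Most of the genes lie on separate chromosomes, and Junb, Jund and Ier2 share chromosome 8. On GRCm38 (GENCODE M21), Fos lies on chromosome 12 from 85473890 to 85477273, Fosb on chromosome 7 from 19302696 to 19310051 and Jun on chromosome 4 from 95049034 to 95052222. Junb lies on chromosome 8 from 84974484 to 84978718, with Ier2 from 84661331 to 84662852 and Jund from 70698949 to 70700616 on the same chromosome. Atf3 lies on chromosome 1 from 191170296 to 191218039, Nr4a1 on chromosome 15 from 101254269 to 101274795 and Dusp1 on chromosome 17 from 26505590 to 26562128. Junb and Ier2, neighbours on this scale, had a correlation of 0.48, beside a mean of 0.42 over all pairs. The other pairs on chromosome 8 were Junb with Jund (0.38) and Jund with Ier2 (0.28). Fos and Nr4a1, the pair with the highest correlation (0.61), lie on different chromosomes. The part of location was not tested.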

How the data were processed

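The deposited table holds whole-number counts of reads per gene and cell; the authors' tools, per the submitters' processing notes, were Subread 1.4.6-p5 with featureCounts, TopHat2 2.1.1 and SAMtools 0.1.18, and the builds named are GRCm38 and mm10. Whether counting used strand is not stated in those sources. The table has 1187 cells on 4 plates, with 100779 to 584112 reads per cell, and no 2 columns were identical. No column could be matched to a label, so the planned comparison of genotypes was not made and the cells were treated as 1 pooled sample.

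Counts were scaled to a total of 1000000 reads for each cell, class or plate (CPM) in Python 3.11.15 with pandas 2.3.3 and scipy 1.17.1. Log2 ratios use summed CPM with a prior of 1 CPM on both sides, and called means at least 1.5-fold among genes at 5 CPM or more in either class. Shares of cells with a read use cells thinned to 100000 reads; no cell was shallower. Shares carry exact Clopper-Pearson and sums exact Poisson intervals at 95%. Lengths are unions of exons from GENCODE M21. No filter on cells and no doublet caller was applied. TMM factors for an alternative scaling came from edgeR 4.0.16. The ratio and ranking steps were tested on simulated data. Members, related lists and class genes were chosen with earlier results of these data known. Beyond the members, the text names the 10 genes most and the 5 least like them, and listed genes at least 1.5-fold apart in 1 direction on all plates; genes in lists of leading or overlapping genes are named as such.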

Additional observations from a re-analysis of the deposited data

Results flagged for a closer look

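Over the 4 plates, the log2 ratio of Fosb between arterial and venous cells was 0.98 on plate 521 and between -1.52 and -1.21 on the others, a gap of 0.873 of the whole range and above Dixon's 95% limit for a set of 4 values. A single venous cell held 78.9% of the venous Fosb level on plate 521, and the ratio was 2.27 without it. Of 20 sets of plate values checked, 1 was marked in this way, and chance marks about 1 in 20.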

How the results depend on the processing

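The arterial to venous comparison was repeated with 12 other settings of the class genes, the threshold, the scaling, the averaging and the cells kept, and with each cell left out in turn, which was chosen after seeing the data. The member median kept its sign under all of these on plates 521 (0.51 to 1.06), 523 (-0.67 to -0.30) and 524 (-1.20 to -0.49), and changed it on plate 522 (-0.13 to 0.46). The count of members at least 1.5-fold higher in arterial cells on plate 521 ran from 4 to 7 of 10. That of members higher in venous cells on plate 524 ran from 4 to 9; it was 4 with class genes counted from 200 CPM, where 28 venous cells were left. With the plates pooled, the median ran from -0.39 to 0.05, each plate left out in turn included; it was above 0 only without plate 523. Of 22 gene and plate values past 1.5-fold, 5 lost the call when some cell was left out. No called value changed its direction. With arterial cells by Gkn3 alone, Egr1 on plate 524 was -2.29, and with venous cells by Il1r1 alone it was 0.86. The share of cells with at least 5 members on was 43.9%, but 56.9% with a member on from 20 CPM and 17.1% from 500 CPM. The mean pair correlation was 0.42, and 0.41 and 0.40 with depth and genes taken out and by Pearson correlation of log2(CPM + 1). No paired analysis was possible because the columns carry no replicate number or genotype. Shallow cells limit shares: thinning to 100000 reads lowered the share with a Fos read from 72.5% to 60.2%.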

Other observations

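Some cells carried genes of both classes, an arterial gene and a venous gene at 50 CPM or more each. There were 45 such cells, 23 of them on plate 521 and 16 on plate 522. A median of 5 members was on in them, and the 10 members together summed to 4502 CPM, beside 4173.5 CPM in arterial, 4349 CPM in venous and 3468 CPM in cells with neither. They had a median of 5401 genes with a read, more than arterial (4810) or venous cells (4787); doublets were not called.

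The summed level of the members was also read by the place of a well on its plate. In blocks of 4 rows it ran from 2720 to 3183 CPM on plate 521, 3157 to 4420 CPM on plate 522, 3949 to 5473 CPM on plate 523 and 3866 to 4009 CPM on plate 524. In blocks of 6 columns it ran from 2494 to 3267, 3245 to 4585, 3853 to 5312 and 3643 to 4056 CPM. No test was made, and the order of sorting was not known.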
